A study of Mus musculus with 15 samples.

Results

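Kidney RNA was compared between 7 libraries of mice given folic acid and 8 libraries of mice given its vehicle, with genotype as a term, to ask which genes moved the same way in Tert+/+ mice and in G3 Tert-/- mice. All 15 libraries of the series entered the comparison: 4 Tert+/+ vehicle, 3 Tert+/+ folic acid, 4 G3 Tert-/- vehicle and 4 G3 Tert-/- folic acid. Tert+/+ mice (WT from here on) carry telomerase reverse transcriptase, and G3 Tert-/- mice (G3) are the generation 3 of mice bred without it. Mice of 6 to 8 weeks, labelled male or female, received 1 intraperitoneal dose of folic acid at 125 mg/kg or 200 ul of 0.3 M NaHCO3, and the perfused kidneys were taken on day 14. Of the 19602 genes in the table, 14651 reached a normalised count of 10 in 3 or more libraries and were tested. Values are gene counts scaled to a common library size, from reads of the 3' ends of polyadenylated RNA. Library numbers such as WT folic acid 1 only name a sample. Nothing beyond the labels says that libraries came from separate animals, so p-values measure the spread between these samples.

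A large dose of folic acid injures kidney tubules. The injured epithelium releases signals that recruit macrophages and activate interstitial fibroblasts, and collagen, fibronectin and other matrix proteins are then laid down between the tubules. Telomerase maintains chromosome ends, and mice bred without it over generations carry short telomeres.

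Each library held 5014684 to 6609307 reads (median 6091019). The nephron markers Lrp2, Slc34a1, Umod, Slc12a3 and Aqp2 were present in all 15 libraries, while Alb, a liver gene, ranged from 22.7 to 852 normalised counts and Adipoq, a fat gene, from 0 to 297. Tert RNA was 3.00 to 22.6 in WT and 2.93 to 15.1 in G3. The groups overlapped, and a 3' tag does not show which exons a transcript holds. WT folic acid 1 stood apart: the ribosomal RNA-related gene model Gm42418 took 23.0% of its reads, against 4.85 to 8.15% elsewhere. Its summed count over the lymphocyte list, immunoglobulin genes included, was 12747, against at most 2829.7 in any other library. Replicates differed beyond counting error throughout: the mean chi-square per gene was lowest for G3 vehicle 3 and 4 (2.88), then for WT folic acid 2 and 3 (3.02), and reached 7.22 or more in every other pair of libraries. In many libraries the labelled sex was not matched by Xist and Y-linked RNA. The share of Y-linked RNA, relative to the highest library, was 0.986, 0.327, 0.942 and 1 in WT vehicle and 0.034, 0.017 and 0.011 after folic acid. G3 vehicle libraries had at most 0.009, against 0.800, 0.017, 0.771 and 0.315 in G3 folic acid. The difference between folic acid and vehicle in Y-linked RNA therefore ran in opposite directions in the 2 genotypes, and within WT it cannot be told apart from the folic acid effect. In G3 the overlap was partial: G3 folic acid 2 had a share of 0.017, close to G3 vehicle. With 1 such library, Y-linked RNA and the folic acid effect were not separated in G3 either. The numbers in the sample titles fall into 3 series, whose meaning the labels do not give. One held all 4 G3 folic acid libraries with G3 vehicle 4 and WT vehicle 4, another the other 3 G3 vehicle libraries, and the last the other 6 WT libraries.

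With genotype as a term, 102 genes passed limma at a Benjamini-Hochberg adjusted p under 0.05 (0.696% of the genes tested). Of these, 86 were higher after folic acid (0.587%) and 16 were lower (0.109%). All 102 had the same sign in WT and in G3 (0.696% of tested genes were called with the same direction in both). Over all tested genes, 52% had the same sign in both. The joint fit seldom calls genes whose effects are opposite, so the shared sign of the 102 was close to fixed and tests nothing. The higher genes included matrix proteins such as Fn1 and Col1a2, macrophage genes such as C1qb and Fcgr1, and Spp1, Vcam1 and Clu from a list of tubular injury genes. Their log2 differences ran from 0.49 for Eif2ak2 to 3.02 for Fcgr1. The lower genes moved less, from -0.35 for Aaed1 to -1.21 for the long non-coding RNA E230001N04Rik. The smallest adjusted p was 0.0337, so the calls sit close to the threshold. Leaving out any 1 of WT vehicle 1, WT vehicle 4, WT folic acid 1, G3 vehicle 2, G3 vehicle 4, G3 folic acid 1, G3 folic acid 2 or G3 folic acid 4 left 0 genes called, and leaving out WT vehicle 3 left 2. Leaving out G3 folic acid 3 gave 464, WT folic acid 2 gave 296, WT folic acid 3 gave 238 and G3 vehicle 3 gave 49. In each of these fits all 102 genes kept their sign, the same in both genotypes, and an unadjusted p under 0.05, a level that 16.3% of tested genes reached. The same data chose the 102 at smaller p-values. Here and in the fits below, this outcome was close to fixed and tests nothing. With the share of Y-linked RNA as a further term, 227 genes were called, 184 higher and 43 lower (1.55%, 1.26% and 0.293% of tested genes), and all 102 were among them. With that term and without the 2 libraries that held both Xist and Y-linked RNA, 0 were called (smallest adjusted p = 0.064, with 1982 genes at an unadjusted p under 0.05). With a term for these title series, 0 were called as well (smallest adjusted p = 0.328, with 1768 genes at that level). G3 vehicle 4 was the only G3 vehicle library in the series of the G3 folic acid libraries. That term and the G3 folic acid effect were therefore barely separated, and the loss of calls cannot be assigned to either. The joint difference of all 102 genes kept its sign and an unadjusted p under 0.05 in these fits (limma). The WT and G3 effects had the same sign for 99 and for 102 of them in these 2 fits, and for 89 with the Y-linked share as a term and without WT folic acid 1. Of the 86 higher genes, 11 would not have passed the filter on the vehicle libraries alone, among them Fcgr1, Arhgap36, Stra6, Coch, Itgam, Gpr35 and Zfp385a, so the filter admitted them only because they were high after folic acid. The same held for 1 of the 16 lower genes and the vehicle libraries.

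**Figure D1:**
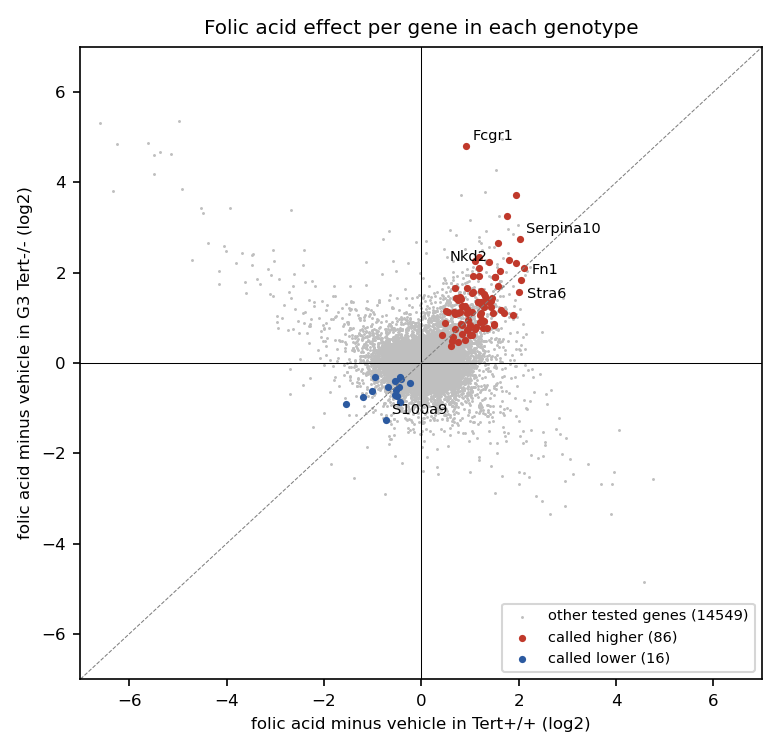
Each point is 1 of the tested genes, with the log2 difference of folic acid minus vehicle in WT on the x axis and in G3 on the y axis. The 86 genes called higher lie in the upper right and the 16 called lower in the lower left, while many other genes fall in the quadrants where the genotypes have opposite signs.

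A stricter question is whether a gene passed in both genotypes at once. With the larger of the 2 genotypes' p-values taken for each gene, 0 genes passed after adjustment in limma, and edgeR and DESeq2 on the recovered reads also gave 0. Without adjustment, 348 genes had p under 0.05 in both genotypes with the same sign (2.38%), 280 of them higher (1.91%) and 68 lower (0.464%), and 410 had opposite signs. With the Y-linked share as a term those counts were 20 and 56. In 1 fit with a term per group, the WT effect called 741 genes (5.06%) and the G3 effect 40 (0.273%). Of the 12 genes called in both (0.0819%), Nkd2 was the only one with the same direction. The other 11, with opposite signs, were Adamts15, Apoh, Chst11, Cyp2j13, Ddx3y, Hsd17b14, Kdm5d, Pzp, Slc10a2, Ugt2b37 and Uty. Ddx3y, Kdm5d and Uty are Y-linked. A list of genes known to be higher in male kidney had a median log2 difference of -4.82 in WT, 3.23 in G3 and -0.28 in the joint comparison. The list of female kidney genes had medians of 3.44, -2.55 and 0.16. Over the 14651 genes the WT and G3 effects had a Pearson r of -0.07 and a Spearman correlation of 0.06, a description of 2 sets of libraries that share no sample. Without WT folic acid 1 the Pearson r was -0.28. The same sign was found for 52% of tested genes, and for 49.6% with the Y-linked share as a term.

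Among the 102 called genes, 97 had an unadjusted p under 0.05 in both genotypes and 57 had folic acid and vehicle libraries that did not overlap in either genotype, 46 higher and 11 lower. Over all tested genes that pattern was found in 0.826%, with 0.614% higher and 0.212% lower. Taken by genotype, 73 of the 102 did not overlap in WT and 85 did not in G3, against 19.9% and 7.75% of tested genes. The same libraries made the calls, so these counts describe the genes and test nothing. The folic acid effect differed between genotypes at an adjusted p under 0.05 (limma) for 560 tested genes (3.82%) and for 1 of the 102, Fcgr1. With the Y-linked share as a term the difference was called for 2 genes (0.0137%), and for 0 of the 102. The joint fit has no term for such a difference, which makes genes that hold one harder to call. The low counts among the 102 therefore test nothing. The 102 genes lay on 20 chromosomes, with 11 each on chromosomes 1 and 11.

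**Figure D2:**
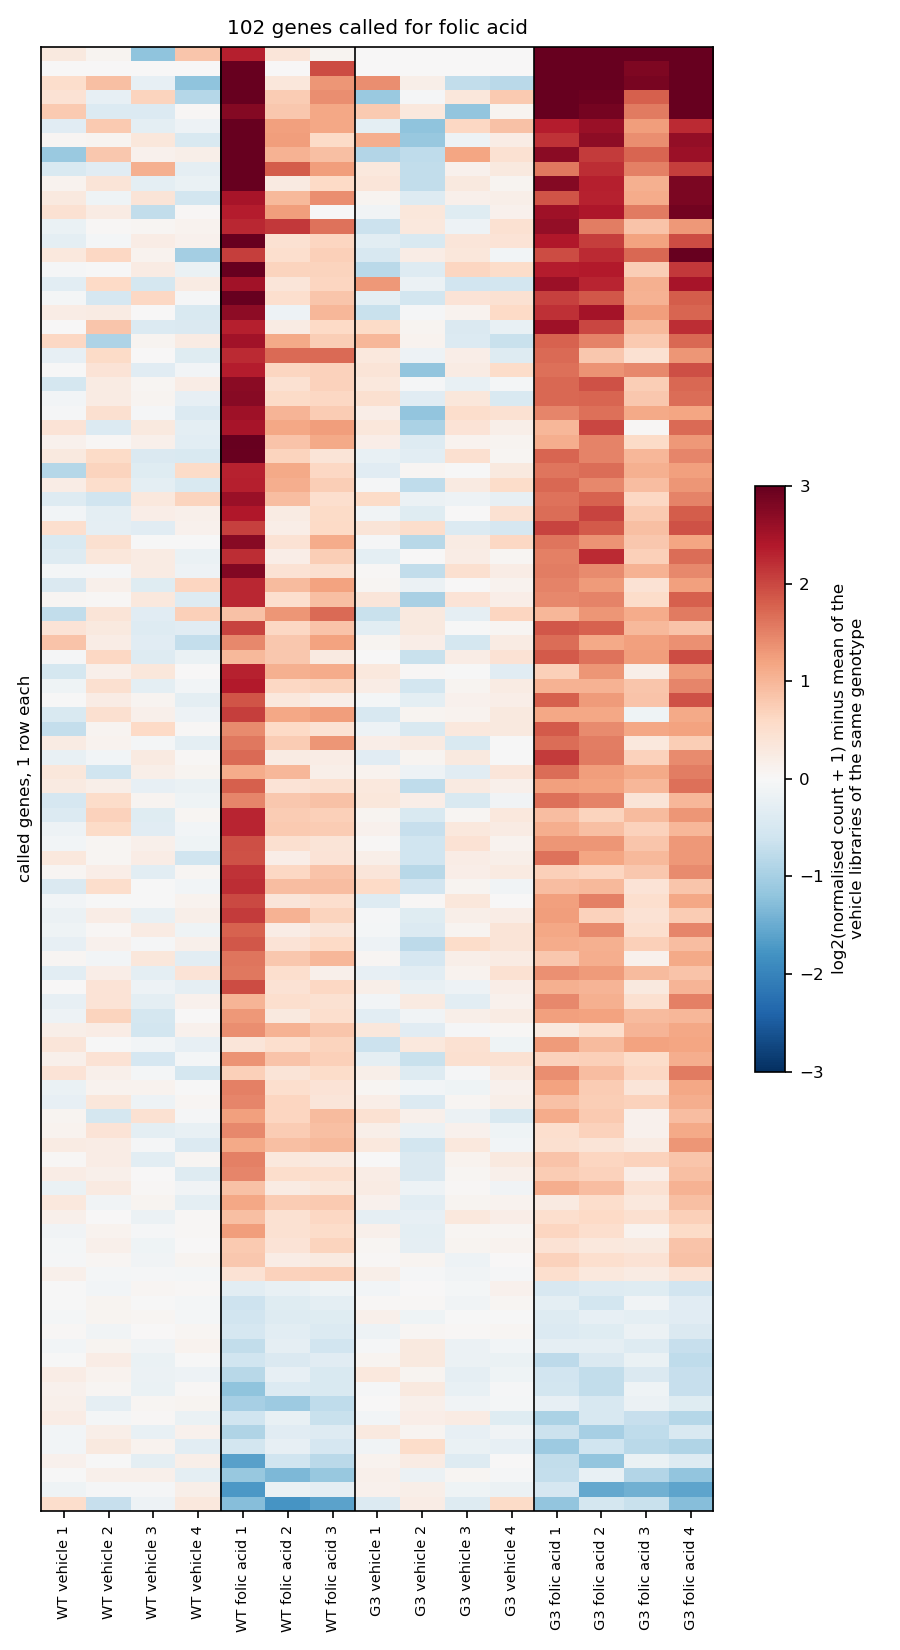
Rows are the 102 called genes and columns the 15 libraries. Colour is log2(normalised count + 1) minus the mean of the vehicle libraries of the same genotype, with differences beyond 3 drawn as 3. The 86 higher genes are red and the 16 lower genes blue in most folic acid columns of both genotypes, with WT folic acid 1 the deepest column of its group.

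Matrix genes were the list with the most shared calls. Of 35 tested collagens, glycoproteins, proteoglycans and crosslinking enzymes, 12 rose and 0 fell. A further 17 had an unadjusted p under 0.05, all higher, and the median log2 difference was 1.09 over the list against -0.018 over all tested genes. To set beside this and the lists below, 0.587% of all tested genes were called higher and 9.44% were higher without adjustment. The lists were chosen with earlier results of these data known. Fn1 encodes fibronectin, a glycoprotein of the early scar (GRCm38 chr1:71585520-71653200, minus strand). Fn1 was at 36.2, 79.6, 37.4 and 41.0 normalised counts in WT vehicle and 706, 109 and 104 in WT folic acid. It was at 42.7, 22.5, 81.1 and 98.2 in G3 vehicle and 273, 323, 127 and 251 in G3 folic acid. Every folic acid library lay above every vehicle library of its genotype, and WT folic acid 1 was far above the rest. The log2 difference was 2.10 ± 0.39 (SE, n = 7 and 8, adjusted p = 0.0337 in limma), with 2.10 in WT and 2.11 in G3. Without WT folic acid 1 the WT difference was 1.20.

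Sparc encodes a matrix protein that binds collagen. Its counts were 811, 1245, 728 and 835 in WT vehicle and 4588, 1357 and 1405 in WT folic acid. The G3 counts were 1245, 723, 1137 and 1271 after vehicle and 2201, 2216, 1913 and 2937 after folic acid. The groups did not overlap in either genotype, although the gap in WT without its first library was narrow. Col1a2, the alpha 2 chain of type I collagen, was at 334, 245, 538 and 342 in WT vehicle and 3668, 497 and 621 in WT folic acid. It was at 366, 308, 598 and 615 in G3 vehicle and 1877, 1652, 936 and 1599 in G3 folic acid. G3 did not overlap, but WT folic acid 2 lay below WT vehicle 3. The log2 difference of Col1a2 was 1.64 ± 0.34 (SE, adjusted p = 0.0387, limma), and its WT effect went from 1.57 to 0.66 without WT folic acid 1. Mgp, matrix Gla protein, an inhibitor of calcification, rose by 1.73, and its WT effect was 1.51 with and 0.55 without that library.

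The other called members of the list were Bgn (biglycan, 1.10), Col5a1 (1.40), Col15a1 (1.34), Nid1 (nidogen, 1.10), Fbn1 (fibrillin-1, 1.38), Loxl1 (a collagen crosslinking enzyme, 0.95), Col4a1 (0.73) and Col6a3 (0.96), as log2 differences. Col1a1, the partner chain of Col1a2, missed the threshold (1.83, adjusted p = 0.0506, limma). It was at 178 and 214 in WT folic acid 2 and 3, within or just above the 146 to 183 of WT vehicle. Of 16 tested proteases and inhibitors that remodel matrix, 1 rose, Mmp14, a membrane-bound collagenase (1.41), and 10 were higher without adjustment. The summed count of the matrix list was 6125 to 7220 in WT vehicle, 8450 to 31330 in WT folic acid, 5326 to 8889 in G3 vehicle and 12030 to 18230 in G3 folic acid. Of 20 tested fibroblast and pericyte genes, 0 were called in limma, 12 were higher without adjustment and 1 was lower. Their summed count was 2001 to 2525 in WT vehicle, 2903 to 8602 in WT folic acid, 2183 to 3401 in G3 vehicle and 3333 to 4990 in G3 folic acid. Acta2, smooth muscle actin, was not called (-0.25, adjusted p = 0.432). Its effect was 0.09 in WT and -0.54 in G3, a difference that was not called (adjusted p = 0.229, limma). In G3 it was at 182 to 256 after folic acid and 272 to 377 after vehicle, with no overlap. In whole kidney, a change in the number of cells of a type and a change in RNA per cell cannot be told apart.

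Secreted proteins outside the list were among the largest rises. Dpt, dermatopontin, a small matrix protein that binds collagen, was at 14.0 to 24.9 in WT vehicle and 336, 48.0 and 29.6 in WT folic acid. The G3 libraries held 8.79 to 44.7 after vehicle and 96.2, 138, 55.9 and 132 after folic acid. Neither genotype overlapped, and the log2 difference was 2.09. Serpina10, a protease inhibitor that acts on coagulation factors, was at 11.3, 6.63, 13.4 and 4 in WT vehicle and 137, 14.4 and 22.9 in WT folic acid. Its G3 levels were 4.07, 9.77, 13.0 and 18 after vehicle and 88.1, 82.7, 37.0 and 105 after folic acid. It had the largest rise among called genes with a mean of at least 20 (2.42 ± 0.43, SE, adjusted p = 0.0337, limma), although WT folic acid 2 was only just above the highest WT vehicle library. Cpxm1, a carboxypeptidase-like secreted protein, rose by 2.06 and Igsf10 by 1.72.

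Macrophage genes had the highest median of the lists. Of 28 tested, 4 rose (Itgam, Fcgr1, C1qb and Aif1) and 0 fell, while 26 were higher without adjustment. Over all tested genes 0.587% were called higher, and 9.44% were higher without adjustment. Itgam and Fcgr1 passed the filter only because they were high after folic acid, so their p-values are no support. The list's median log2 difference was 1.32 in the joint comparison, 0.92 in WT, 1.61 in G3 and 0.18 in WT without WT folic acid 1. C1qb encodes a chain of complement C1q, made largely by tissue macrophages. It was at 59.9, 72.0, 45.1 and 48.0 in WT vehicle and 563, 67.2 and 83.9 in WT folic acid. In G3 it was at 84.4, 39.1, 81.1 and 69.2 after vehicle and 450.3, 335, 138 and 474 after folic acid. All 4 G3 folic acid libraries were above G3 vehicle, but WT folic acid 2 fell within WT vehicle. The log2 difference was 1.85 ± 0.39 (SE, adjusted p = 0.0416, limma).

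Fcgr1 encodes the high-affinity Fc receptor for IgG (chr3:96282909-96293969, minus strand). It had no read in any G3 vehicle library and was at 22.7, 36.6, 19 and 34.0 in G3 folic acid. That is at least 9.18-fold higher, against a floor of 3 counts per library. In WT it was at 4.52, 3.79, 0.959 and 6.99 after vehicle and 21.6, 4.80 and 3.81 after folic acid, so WT overlapped. It was the 1 called gene whose effect differed between genotypes (3.89 larger in G3 on the log2 scale, adjusted p = 0.0123, limma, with an adjusted p of 1 when the Y-linked share was a term). The p-value of that difference is no support either, because the filter admitted Fcgr1 only through its folic acid levels. Itgam, the alpha chain of the CD11b integrin, rose by 1.82, with 15.0 to 39.4 in G3 folic acid against 3.25 to 5.86 in G3 vehicle. In WT it was at 23.8, 10.6 and 3.81 after folic acid against 1.92 to 5.66. Aif1, an actin-bundling protein used as a macrophage marker, rose by 1.68 and overlapped in both genotypes. The summed macrophage count was 3575 to 4053 in WT vehicle, 4242 to 16330 in WT folic acid, 3329 to 4720 in G3 vehicle and 4698 to 15170 in G3 folic acid.

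Of 18 tested complement genes, 2 rose, C1qb among them. Of 20 tested chemokine and cytokine genes, 2 rose and 14 were higher without adjustment. Cxcl16, a membrane-bound chemokine and scavenger receptor, was at 150.4, 185, 186 and 172 in WT vehicle and 491, 246 and 232 in WT folic acid. The G3 libraries held 208, 191, 184 and 219 after vehicle and 465, 341, 257 and 449 after folic acid. The groups were separate in both genotypes, with effects of 0.81 in WT and 0.87 in G3, and the WT effect was 0.46 without WT folic acid 1. Cxcl16 overlaps Zmynd15 on the opposite strand by 551 bases, at the 5' end of both genes. Both were called, the kit keeps strand, and whether reads were counted by strand is not stated in the labels. The reads are of 3' ends, and whether these genes shared any was not tested. Cxcl14, an epithelial and stromal chemokine, rose by 1.32, with WT folic acid 2 at 45.1 within the 23.8 to 46.4 of WT vehicle.

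Some of the called genes shared letters in their promoters. RefSeq promoters of GRCm38.p6, from 250 bases before to 50 after the gene start, were at hand for 68 of the 86 higher genes. The letters of the interferon response element, 2 copies of GAAA with 2 bases between them, were found on either strand in 12 of these 68 (17.6%), against 319 of 10456 tested genes (3.1%) and 3.4% of all 32851 promoters. Among the 12 lower genes with a promoter, 1 held it (8.3%). Most genes with the match were not called: of the 319, 12 were called higher (3.76%) and the median log2 difference was 0.03. CCAAT was found in 36.8% of the higher genes and 38.2% of tested genes. TTTGAA, whose match can run into one of the element, was found in 10.3 and 11.9%. TGANTCA, the AP-1 letters, was found in 7.4 and 5.0%. A match describes the letters only and is no evidence of a bound factor. The 5 windows shown are from genes of host defence, phagocytes or the chemokines, although Aif1, a macrophage marker with a match, is not shown. The windows were chosen after the values were seen. They are read 5′ to 3′ on the gene's strand, with the match in capitals.
Eif2ak2 at chr17:78882535-78882564, minus strand: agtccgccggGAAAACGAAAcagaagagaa
Ifitm3 at chr7:141010723-141010752, minus strand: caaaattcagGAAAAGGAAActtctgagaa
Slfn5 at chr11:82951937-82951966, plus strand: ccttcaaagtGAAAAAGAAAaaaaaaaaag
Ncf1 at chr5:134229688-134229717, minus strand: aaaattctcaGAAAGTGAAAgactaagtct
Cxcl14 at chr13:56296704-56296733, minus strand: gtgtccacagGAAACAGAAAagcagcaccc

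Eif2ak2 encodes PKR, a kinase activated by double-stranded RNA. It was at 65.4 to 75.8 in WT vehicle and 91.9, 110.4 and 113 in WT folic acid, and at 67.1 to 82.4 in G3 vehicle and 103, 91.1, 86.9 and 99.3 in G3 folic acid. The groups did not overlap in either genotype, and here WT folic acid 1 was the lowest of the WT folic acid libraries. Ifitm3, a membrane protein that limits virus entry, rose by 0.73 and Slfn5, a schlafen family gene, by 0.60. Ncf1, a cytosolic subunit of the phagocyte NADPH oxidase, rose by 1.34. The other genes with a match were Aif1, Fbn1, Igsf10, Lgals9, Rbm43, Rcn3 and Spp1. None of the 12 was on the fixed list of interferon-stimulated genes. That list leaves out called host defence genes such as Eif2ak2, Ifitm3 and Slfn5, so its counts cover its own members only. Of the 25 tested members of that list 0 were called in limma and 15 were higher without adjustment, with a median of 0.48, and with the Y-linked share as a term 1 was called. The match was found in 13 of its 21 members with a promoter.

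Of 25 tested tubular injury genes, 3 rose, Spp1, Vcam1 and Clu, and 13 were higher and 1 lower without adjustment. Spp1 encodes osteopontin, secreted by injured tubules. It was at 327, 624, 499.9 and 402 in WT vehicle and 1906, 1009 and 1079 in WT folic acid. Its G3 levels were 774, 1132, 1154 and 1306 after vehicle and 2403, 2400.4, 982 and 2366 after folic acid. WT did not overlap, while G3 folic acid 3 lay within G3 vehicle. The log2 difference was 1.14 ± 0.22 (SE, adjusted p = 0.0337, limma), and the WT effect was 1.5 with and 1.21 without WT folic acid 1. Clu, clusterin, a secreted chaperone, was at 1449 to 2367 in WT vehicle and 3627, 2539 and 2442 in WT folic acid, and at 1554 to 2324 in G3 vehicle and 5274, 4038, 2697 and 5534 in G3 folic acid. Neither genotype overlapped. Vcam1, an adhesion molecule for leukocytes that marks incompletely repaired tubule cells, rose by 1.53, and WT overlapped because WT vehicle 2 was at 103 and WT folic acid 2 and 3 at 68.1 and 87.7.

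The usual injury markers Havcr1 (KIM-1) and Lcn2 (NGAL) had large differences that missed the threshold, 3.02 with an adjusted p of 0.0560 and 2.57 with 0.0759 (limma). Havcr1 was at 2.26, 0, 1.92 and 5 in WT vehicle and 44.2, 4.80 and 0.953 in WT folic acid. In G3 it was at 0, 0, 3.25 and 9.02 after vehicle and 80.8, 58.2, 22.0 and 53.7 after folic acid. WT folic acid 2 and 3 did not rise above WT vehicle, while all 4 G3 folic acid libraries were above G3 vehicle. Lcn2 showed the same order, with 358, 11.5 and 12.4 in WT folic acid against 1.90 to 21.5 in WT vehicle.

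Of 28 tested cell cycle genes, 1 rose, Cenpf, a kinetochore protein of dividing cells (1.21), and 12 were higher without adjustment. Cenpf was at 70.8, 61.1, 47.0 and 77.8 in G3 folic acid against 11.7 to 26.1 in G3 vehicle, and at 48.8, 43.2 and 29.6 in WT folic acid against 18.2 to 37.9 in WT vehicle. Mki67 was not called (1, adjusted p = 0.108). Of 20 tested genes of epithelial to mesenchymal transition, 2 rose, Zeb2 and Fn1. Zeb2, a transcription factor that represses E-cadherin (chr2:44983632-45117395, minus strand), was at 349, 526, 369 and 427 in WT vehicle and 1141, 651 and 532 in WT folic acid. The G3 libraries held 471, 308, 427 and 466 after vehicle and 761, 686, 671 and 878 after folic acid. Neither genotype overlapped, though WT folic acid 3 was only just above WT vehicle 2, and the effects were 0.83 in WT and 0.85 in G3. The WT effect of Zeb2 was 0.51 without WT folic acid 1. Zeb2 is also made by macrophages, whose summed counts were higher in the folic acid groups. Their part in the Zeb2 result was not tested. Vim, vimentin, was not called (0.58, adjusted p = 0.138), and neither was Cdkn1a, the cyclin-dependent kinase inhibitor p21 (0.04, adjusted p = 0.951).

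The 5 rising genes with the smallest larger-of-2 p-values, Stra6, Coch, Nkd2, Fblim1 and Eva1b, are on none of the fixed lists. Stra6 and Coch passed the filter only because they were high after folic acid, so their p-values and lack of overlap are no support. Stra6, a cell surface receptor that takes up retinol (chr9:58063788-58153996, plus strand), was at 2.26, 2.84, 2.88 and 3.00 in WT vehicle and 17.0, 15.4 and 10.5 in WT folic acid. Its G3 levels were 5.08, 10.7, 7.57 and 12 after vehicle and 58.1, 26.3, 16 and 22.4 after folic acid. Neither genotype overlapped, and the 3 WT folic acid libraries were close to each other. The log2 difference was 1.78 ± 0.28 (SE, adjusted p = 0.0337, limma), 2.01 in WT and 1.58 in G3, and the WT effect was 1.88 without WT folic acid 1. G3 vehicle already stood above WT vehicle in each library.

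Coch, cochlin, a secreted protein with a host defence role, was at 3.39, 3.79, 11.5 and 4 in WT vehicle and 51.1, 20.2 and 13.3 in WT folic acid. In G3 it was at 5.08, 1.95, 4.33 and 5.01 after vehicle and 13.6, 21.6, 13.0 and 19.7 after folic acid. Neither genotype overlapped, and WT vehicle 3 was high in its group. The effects were 2.06 in WT, 1.53 without WT folic acid 1, and 1.84 in G3. Nkd2, an inhibitor of Wnt signalling that binds dishevelled (chr13:73818534-73847631, minus strand), was at 7.92, 5.69, 8.63 and 4 in WT vehicle and 39.7, 13.4 and 18.1 in WT folic acid. The G3 libraries held 11.2, 7.82, 11.9 and 12 after vehicle and 41.8, 56.4, 24.0 and 81.4 after folic acid. It passed in WT (1.61, adjusted p = 0.0349) and in G3 (2.03, adjusted p = 0.0377) in the limma fit with a term per group. Mean Nkd2 was already 10.7 in G3 vehicle against 6.56 in WT vehicle. Nkd2 lies near Tert (chr13:73626911-73649843), and the part of that position in its levels was not tested.

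Fblim1, an adaptor between filamin and cell adhesions, rose by 1.37, with 1.39 in WT, 0.91 without WT folic acid 1, and 1.36 in G3. Eva1b, a transmembrane protein, rose by 0.61, with 0.66 and 0.58. Neither overlapped in either genotype. Gpr35 and Zfp385a, chosen after their values were seen, had WT effects of 1.88 and 1.30, and of 1.70 and 1.51 without WT folic acid 1. Both passed the filter only because they were high after folic acid. Gpr35, an orphan G protein-coupled receptor, was at 2 to 4.74 in WT vehicle and 17.0, 11.5 and 11.4 in WT folic acid. Zfp385a, a zinc finger protein that binds RNA, was lowest in WT folic acid 1 among the WT folic acid libraries (12.5, against 17.3 and 22.9). Arhgap36, picked after its values were seen, was the only tested gene with no read in any of the 8 vehicle libraries. After folic acid it was at 13.6, 0 and 2.86 in WT and 14.5, 11.3, 5.99 and 21.5 in G3. Against a floor of 3 counts per library it was at least 4.35-fold higher in G3. In WT only WT folic acid 1 was above that floor. A gene with no read after vehicle could enter the test only by being high after folic acid.

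**Figure D3:**
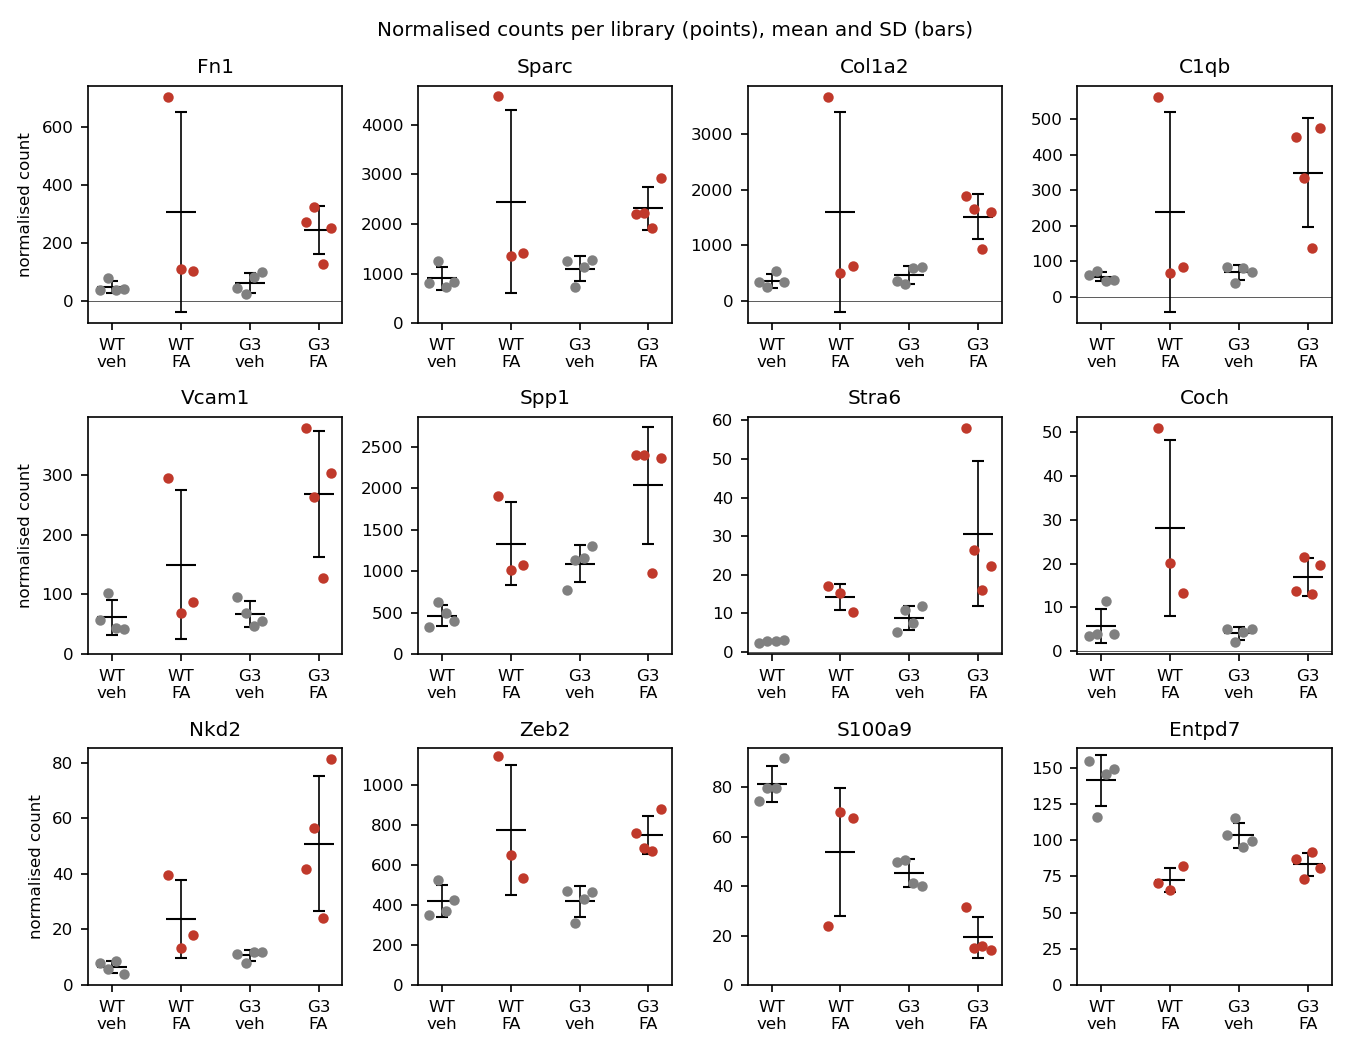
Normalised counts of 12 called genes, 1 point per library, for WT and G3 after vehicle (grey) and folic acid (red), with the mean and SD of each group as bars. WT folic acid 1 is the isolated high point in Fn1 (706), Col1a2 (3668) and C1qb (563), while the WT folic acid points of Stra6 lie together at 10.5 to 17.0.

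Of the 16 genes that fell, few belong to a fixed list. S100a9, a calcium-binding protein of neutrophils, was at 74.6, 79.6, 79.6 and 91.9 in WT vehicle and 23.8, 70.1 and 67.7 in WT folic acid. Its G3 levels were 49.8, 50.8, 41.1 and 40.1 after vehicle and 31.8, 15.0, 16 and 14.3 after folic acid. Neither genotype overlapped, and the log2 difference was -1.02 ± 0.23 (SE, adjusted p = 0.0489, limma). WT folic acid 1 carried most of the WT difference, which was -0.73 with it and -0.23 without it. S100a9 was the 1 call among 9 tested neutrophil and erythroid genes, of which 8 were lower without adjustment, haemoglobin genes included. Their median was -0.34 in WT and -1.43 in G3. Their summed count was 16720 to 35500 in WT vehicle, 17700 to 23480 in WT folic acid, 27470 to 44830 in G3 vehicle and 6397 to 22260 in G3 folic acid. These genes are carried by blood, and the part of residual blood in the S100a9 result was not tested.

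Entpd7, an intracellular nucleoside triphosphatase (chr19:43689672-43733697, plus strand), was at 155, 116, 146 and 149 in WT vehicle and 70.3, 65.3 and 82.0 in WT folic acid. In G3 it was at 104, 115, 95.2 and 99.2 after vehicle and 87.1, 73.3, 91.9 and 80.5 after folic acid. The groups were separate in both genotypes, the fall was -0.95 in WT and -0.31 in G3, and WT stayed at -0.93 without WT folic acid 1. Piga, an enzyme that starts the synthesis of GPI anchors, was at 116 to 153 in WT vehicle and 72.6, 107 and 104 in WT folic acid, and at 89.8 to 131 in G3 vehicle and 53.6 to 78.7 in G3 folic acid. It fell by 0.63 on the log2 scale. Polr3e, a subunit of RNA polymerase III, fell by 0.81 and overlapped in G3, where G3 folic acid 3 was at 312 and G3 vehicle 3 at 275.

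Wipf3 (actin regulation, -0.63), Agfg2 (-0.56), Fam102b (-0.46) and Pcmtd2 (-0.38) were lower with no overlap in either genotype. Lmbrd2 (-0.60), Txnrd3, a thioredoxin reductase (-0.50), and Usp10, a deubiquitinase (-0.37), overlapped in G3. The falls were small beside the rises: the median of the 16 was -0.52 in WT and -0.57 in G3, against 1.17 and 1.26 for the 86 higher genes.

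Lists of tubule function held 0 shared calls in limma. Of 34 tested proximal tubule genes, 0 were called and 1 was lower without adjustment, with a median of -0.18. Lrp2, the endocytic receptor megalin, was not called (-0.26, adjusted p = 0.572). It was at 4109 to 5815 in G3 folic acid against 8159 to 9417 in G3 vehicle, with no overlap, and at 8702 to 12006 in WT folic acid against 6129 to 12467 in WT vehicle. Of 31 fatty acid oxidation genes, 6 were lower without adjustment (median -0.17). Of 29 oxidative phosphorylation genes, 5 were lower (-0.14). Of 36 amino acid enzymes, 9 were lower (-0.25). Of 27 genes that carry or use folate, 1 was higher and 5 lower, and 0 were called. Over all tested genes 9.44% were higher and 6.91% lower at that level. Of 18 endothelial genes, 2 were higher and 0 were called, and of 9 lymphocyte genes 3 were higher and 0 were called. The lymphocyte list held 22 genes, so most of it was not tested. Trbc2, a T cell receptor constant gene outside that list, was called higher (1.14, adjusted p = 0.0337, limma). Kl, klotho, a co-receptor for a hormone that regulates phosphate, was not called (-0.42, adjusted p = 0.353).

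**Figure D4:**
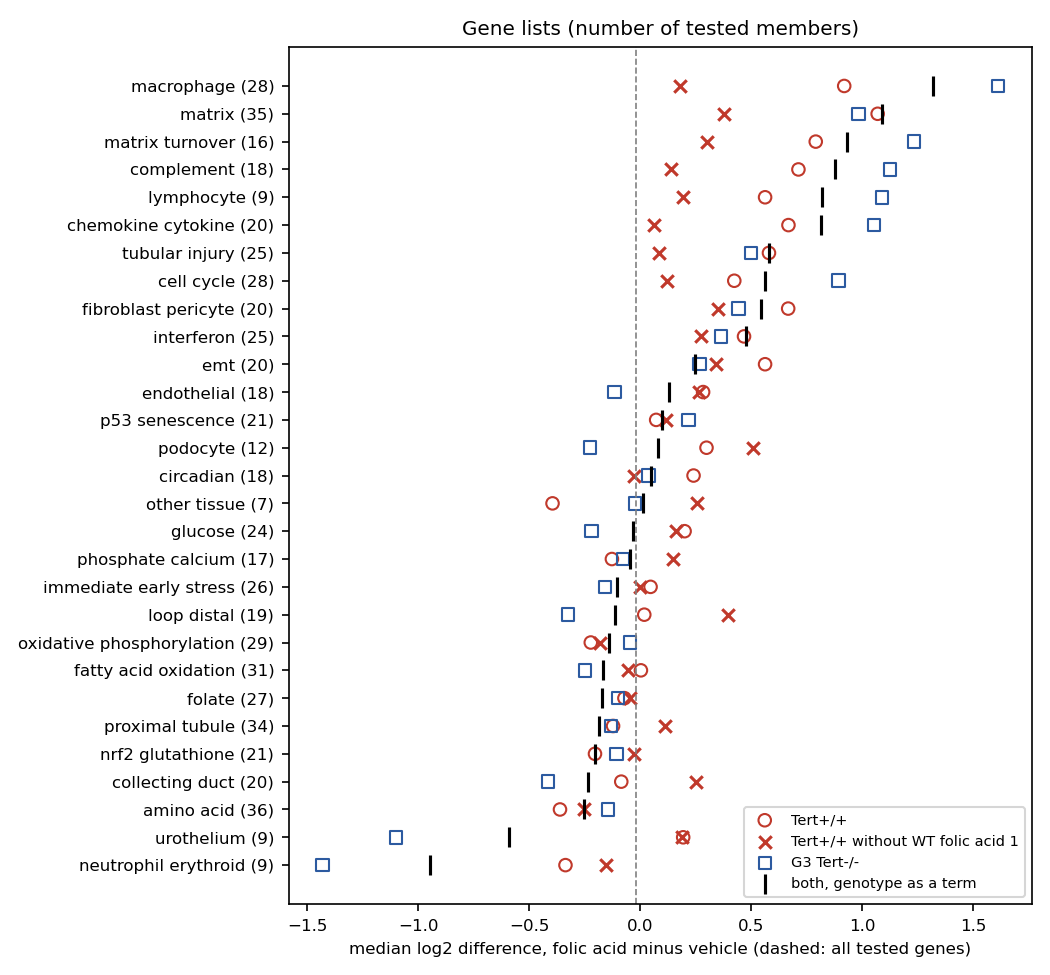
Median log2 difference of folic acid minus vehicle over the tested members of each gene list, in WT (circles), WT without WT folic acid 1 (crosses), G3 (squares) and the joint comparison (bars). Macrophage and matrix genes have the highest joint medians, 1.32 and 1.09, and in WT they drop to 0.18 and 0.38 without WT folic acid 1. The sex-related lists are left out.

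The size of the WT effect rested in part on 1 library, more for the higher genes than for the lower. WT folic acid 1 was the highest of the 3 WT folic acid libraries in 83 of the 86 higher genes and the highest of all 15 libraries in 58. It was the lowest of the 3 in 12 of the 16 lower genes. The median of the higher genes over the vehicle mean of the same genotype was 2.13, 0.617 and 0.682 in the WT folic acid libraries and 1.53, 1.39, 0.808 and 1.35 in the G3 folic acid libraries. G3 folic acid 3 was thus closer to WT folic acid 2 and 3 than to the other 3 G3 libraries. Without WT folic acid 1 the median WT effect of the higher genes went from 1.17 to 0.667, and all 86 remained above 0. That of the lower genes went from -0.52 to -0.386, and all 16 remained below 0. Of the 86 higher genes, WT folic acid 1, 2 and 3 had 86, 67 and 73 above every vehicle library of WT, and G3 folic acid 1 to 4 had 85, 86, 74 and 86 above every one of G3. Over all tested genes that share was 20.5 to 31.7%. These libraries also made the calls, so the counts test nothing.

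**Figure D5:**
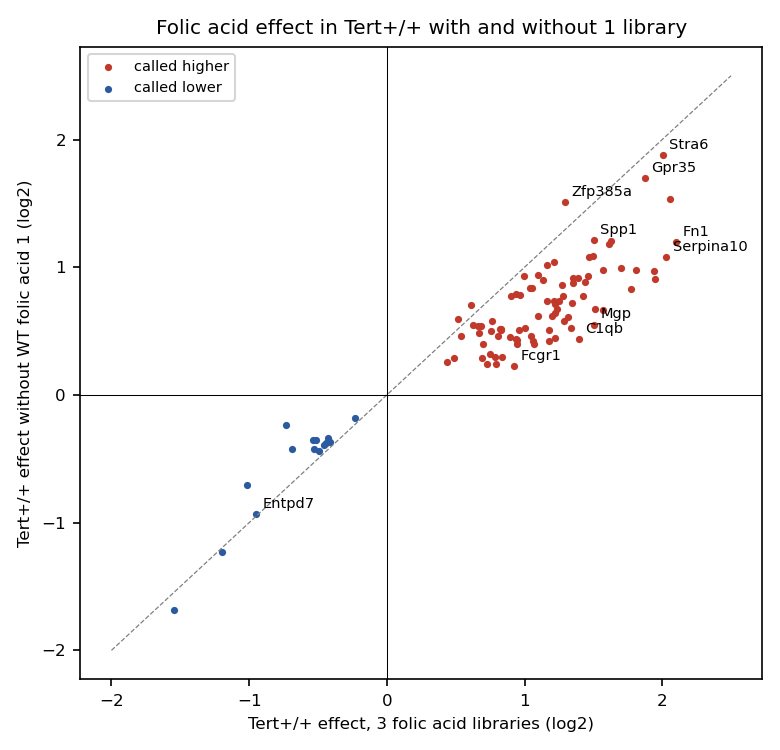
WT folic acid effect (log2) of the 102 called genes with all 3 folic acid libraries on the x axis and without WT folic acid 1 on the y axis, with the line of equality dashed. All points keep their sign. C1qb, Mgp and Fcgr1 drop far below the line, while Stra6, Gpr35 and Entpd7 stay near it.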

How the data were processed

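RNA of whole mouse kidneys was read from the 3' end with the QuantSeq FWD kit, per the labels' protocols (300 ng input, RNA quality score 6.3 on average, range 4.7 to 8.0). Per the submitters' processing notes, FastQC 0.11.7, TopHat2 2.0.10, Bowtie 1.0.0, SAMtools 0.1.19, HTSeq 0.6.1 and DESeq2 were used with GRCm38. The deposited values are a signal, read counts per gene scaled by the authors with a factor for each library: within a library every value is a multiple of 1 step (0.895 to 1.13). Dividing by the step gave whole reads for 100% of values (tolerance 0.001).

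Genes were fitted on log2(normalised count + 1) with limma 3.58.1 (R 4.3.3, mean-variance trend), with terms for genotype and treatment, or a term per group for the effect in each genotype and their difference. Fold changes are on that scale and understate those of low genes. Calls are at a Benjamini-Hochberg (BH) adjusted p under 0.05 over all 14651 genes. Labelled sex is not a term, because Xist and Y-linked RNA went against it. Library numbers follow accession order. The design was tested on simulated counts with known changes.

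Named genes were the 10 calls of largest change in each direction with a mean count of 20 or more (predicted and Y-linked genes left out), the 3 calls of smallest p in each of 31 lists, the 5 genes each way with the smallest larger-of-2 p-values, and a panel of Havcr1, Lcn2, Col1a1, Fn1, Vim, Acta2, Vcam1, C1qb, Mki67, Lrp2, Kl, Slc10a2, Cdkn1a and Tert. The rule also allowed promoters of called matrix genes, and windows with the interferon response letters were shown in their place. Comparison, lists and panel were chosen with earlier results of these data known. Positions come from GENCODE M21 (19509 symbols matched). Alternatives used other terms, filters, pseudocounts and scalings, library weights, each library left out, and the recovered reads in edgeR 4.0.16 and in DESeq2 1.42.0. Some members of the lists are not reported here.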

Additional observations from a re-analysis of the deposited data

Results flagged for a closer look

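In 147 groups of 4 libraries checked for the named genes, 8 had a library far from the other 3, where chance gives about 1 in 20. Fn1 was at 79.6 in WT vehicle 2, with the others at 36.2 to 41.0, and Mki67 was at 54.0 in the same library, with the others at 24.9 to 29.0. Aif1 was at 42.7 in G3 vehicle 1, against 10.8 to 14.7, which is why its G3 groups overlapped. In G3 vehicle 1, Acta2 was also high at 377, against 272 to 283, and Pcmtd2 was low at 289, against 333 to 338. S100a9 was at 31.8 in G3 folic acid 1, against 14.3 to 16. Spp1 was at 982 in G3 folic acid 3, against 2366 to 2403. Coch was at 11.5 in WT vehicle 3, against 3.39 to 4.

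Of the named genes, 3 had a folic acid effect that differed between genotypes in limma (difference G3 minus WT, term per group). For Fcgr1 it was 3.89 on the log2 scale, for Lrp2 -1.21 and for Slc10a2, the ileal and renal bile acid transporter, -1.80. Fcgr1 passed the filter only because it was high after folic acid, so its p-value for the difference is no support. Fcgr1 had 0.93 in WT, which did not pass (adjusted p = 0.357), and 4.81 in G3, Lrp2 had 0.39 in WT and -0.81 in G3, and Slc10a2 had 0.71 in WT and -1.09 in G3. With the Y-linked share as a term the adjusted p of the difference was 1 for each of the 3.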

How the results depend on the processing

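Counts are genes called, with higher and lower in brackets, against 102 (86, 16) as reported. All had the same direction in both genotypes except where stated. The count was 226 (188, 38) with labelled sex as a term, 227 (184, 43) with the Y-linked share, 92 with that share and without WT folic acid 1 (81 of them with the same direction), 0 (0, 0) with the Y-linked share and without the 2 libraries holding both Xist and Y-linked RNA, and 0 (0, 0) with the number series of the sample titles as a term. It was 262 (209, 53) for the mean of the 2 genotypes' effects, 229 (189, 40) with library weights, 5 (4, 1) without the mean-variance trend, 339 (311, 28) with edgeR, 680 (549, 131) with DESeq2 and 418 (356, 62), 417 of them with the same direction, with edgeR and the Y-linked share. Quantile scaling left 10 lower genes. Other filters, pseudocounts and scalings gave 81 to 141 calls. Leaving out each library in turn gave 0 to 464 calls (0 to 359 higher, 0 to 105 lower, 0 to 464 with the same direction). With the Y-linked share, chosen for this step after the values were seen, it gave 0 to 529 (0 to 398, 0 to 131, 0 to 522). The joint difference of all 102 genes kept its sign and an unadjusted p under 0.05 in all of these fits (92 of 92 at the filter of 30). As these data also chose the genes, that describes them and tests nothing. The same direction in both genotypes held for all of them except under the Y-linked share without WT folic acid 1 (89 of 102), without the mixed libraries (99), without WT vehicle 2 (99) and without G3 folic acid 1 or 2 (98 each). The cause of these moves was not tested.

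No gene passed in both genotypes at once under any of these settings. Genes whose effect differed between genotypes, 560 as reported, were 103 with labelled sex, 2 with the Y-linked share, 3 without WT folic acid 1 in addition, 0 without the libraries of mixed RNA, 3 with the title series, 292 without the trend and 1 with edgeR and the Y-linked share. Leaving out 1 library gave 260 to 928, and 0 to 14 with the Y-linked share. Cdkn1a, at 0.04 as reported, changed sign with labelled sex (-0.019), with the Y-linked share and without mixed libraries (-0.073), with edgeR (-0.040), with DESeq2 (-0.055) and with edgeR and the Y-linked share (-0.073). With 1 library left out it ranged from -0.083 to 0.19, or from -0.13 to 0.20 with the Y-linked share, and Slc10a2 turned to 0.082 with the title series. No paired analysis was possible because the labels carry no replicate numbers. 1 read was worth 0.895 to 1.13 normalised counts, so genes such as Fcgr1, Itgam, Arhgap36 and Havcr1 rest on few reads.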
